A study of Mus musculus with 67 samples.

Results

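The comparison was between p2 and pMN neural progenitors (NPs) sorted at day 5 of differentiation from cultures that had received the same concentration of Smoothened agonist (SAG), 100 nM, with 3 samples of each cell type. They were chosen by day, concentration and sorted cell type, as 6 of the 67 samples of the series, and each p2 sample was paired with the pMN sample of the same replicate number. The cells were derived from the mouse embryonic stem cell line HM1, and both groups had been exposed to retinoic acid at 100 nM as well as SAG from day 3. Accessibility was measured by CaTS-ATAC, in which cells were fixed, transposed with Tn5, stained for intracellular transcription factors and sorted before library preparation. Live SOX2+ cells were gated as pMN by OLIG2 in the absence of NKX2.2, and as p2 by NKX6.1 together with PAX6. Replicates were separate differentiations of 1 cell line, so the spread between them is between cultures and not between animals or genotypes.

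In the ventral neural tube, Sonic hedgehog spreads from the notochord and floor plate and sets up progenitor domains in which p2 lies directly dorsal to pMN. NPs of the p2 domain express Irx3 and give rise to V2 interneurons, whereas pMN NPs express Olig2 and give rise to motor neurons and later oligodendrocytes. Olig2 and Irx3 repress each other, which sharpens the boundary between these domains. Because p2 and pMN came from the same dish conditions here, the comparison addresses accessibility that goes with cell type at a fixed agonist concentration.

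The 6 samples held between 22103496 and 29985325 reads in the 111638 consensus elements, which are stretches of open chromatin called in the series. Accessibility is given as normalized counts, the reads in an element divided by the size factor of the sample, and for tests on the log2-like scale of a variance-stabilizing transformation (VST). The sort was reflected at the gene of its own marker. The element at the Olig2 transcription start site (TSS) had 855, 942 and 935 normalized counts in p2 replicates 1 to 3 and 1823, 1877 and 2128 in pMN. All 3 pMN values were above the p2 values, but since OLIG2 protein defined the pMN gate this is a check of the labels and not an independent result. Replicate 3 stood apart to a small degree: the squared correlation of VST values was 0.973 between p2 replicates 1 and 2 but 0.931 and 0.930 with replicate 3, and in pMN it was 0.967 against 0.954 and 0.940. Cells of a type that are fewer and cells that are each less accessible cannot be told apart in such bulk libraries.

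Sequence is shown for 6 elements: the element with the largest fold change, elements near 3 genes of motor neuron identity, the leading element higher in p2 and an element near the interneuron progenitor gene Dbx1. Each is the 300 bases around the center of the element, read 5′ to 3′ from GRCm38.p6, the build called mm10. Capitals mark an E-box on either strand, which here is CAGATG or its reverse complement CATCTG, the palindrome CATATG or the palindrome CAGCTG. E-boxes are the sites of basic helix-loop-helix (bHLH) factors, among them OLIG2 and the proneural factors.
Adra1a, chr14:66502346-66502645, + strand: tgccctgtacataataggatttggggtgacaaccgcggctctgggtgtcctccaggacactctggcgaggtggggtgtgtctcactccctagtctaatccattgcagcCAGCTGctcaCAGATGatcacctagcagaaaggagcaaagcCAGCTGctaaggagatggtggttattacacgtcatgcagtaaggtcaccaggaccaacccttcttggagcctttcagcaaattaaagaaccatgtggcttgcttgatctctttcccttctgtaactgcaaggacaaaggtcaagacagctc
Mnx1, chr5:29485018-29485317, + strand: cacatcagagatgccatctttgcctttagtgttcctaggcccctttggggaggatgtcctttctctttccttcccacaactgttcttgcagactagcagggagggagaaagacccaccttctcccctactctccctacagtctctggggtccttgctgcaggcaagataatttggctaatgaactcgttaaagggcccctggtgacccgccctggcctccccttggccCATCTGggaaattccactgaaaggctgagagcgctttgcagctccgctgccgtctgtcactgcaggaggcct
Lhx3, chr2:26175296-26175595, + strand: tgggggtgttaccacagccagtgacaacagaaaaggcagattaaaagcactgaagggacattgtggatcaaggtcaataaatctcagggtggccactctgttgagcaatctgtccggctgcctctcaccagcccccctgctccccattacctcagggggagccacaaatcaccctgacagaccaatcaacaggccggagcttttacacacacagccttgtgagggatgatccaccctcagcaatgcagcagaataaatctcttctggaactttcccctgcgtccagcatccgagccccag
Slc18a3, chr14:32439859-32440158, + strand: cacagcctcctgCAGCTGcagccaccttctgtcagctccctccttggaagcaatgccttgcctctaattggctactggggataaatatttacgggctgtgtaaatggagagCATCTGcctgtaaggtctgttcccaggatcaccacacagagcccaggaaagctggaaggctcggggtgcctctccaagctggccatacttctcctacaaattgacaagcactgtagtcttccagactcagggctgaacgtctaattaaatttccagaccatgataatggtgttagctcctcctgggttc
Mir99ahg, chr16:77373959-77374258, + strand: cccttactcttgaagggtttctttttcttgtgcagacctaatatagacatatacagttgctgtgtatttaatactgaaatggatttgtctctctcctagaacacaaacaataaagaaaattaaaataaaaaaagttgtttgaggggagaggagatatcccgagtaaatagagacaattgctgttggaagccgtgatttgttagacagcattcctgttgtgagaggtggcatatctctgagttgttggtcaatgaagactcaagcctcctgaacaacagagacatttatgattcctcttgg
Dbx1, chr7:49696465-49696764, + strand: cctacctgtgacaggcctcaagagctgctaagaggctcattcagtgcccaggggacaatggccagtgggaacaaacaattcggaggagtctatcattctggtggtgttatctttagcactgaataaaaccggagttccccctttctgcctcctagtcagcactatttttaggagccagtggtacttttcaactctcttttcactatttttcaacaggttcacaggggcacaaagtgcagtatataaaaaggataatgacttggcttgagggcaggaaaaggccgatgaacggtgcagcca
The Adra1a window held 3 of these E-boxes, the Slc18a3 window 2 and the Mnx1 window 1, and the Lhx3, Mir99ahg and Dbx1 windows had no match.

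Far more elements were more accessible in pMN than in p2. Elements were tested where normalized counts averaged over 100 across the 6 samples. Of these 31888 elements, 873 were differentially accessible at an adjusted p under 0.01 (limma, two-sided, replicate block, Benjamini-Hochberg) and a fold change above 2, which is 2.74% of those tested. Of these, 765 (2.4%) were higher in pMN and 108 (0.339%) higher in p2. The median log2 fold change, given throughout as pMN over p2, was 1.24 for the 765 and -1.13 for the 108, against 0.02 over all tested elements. Elements higher in pMN also reached larger differences, with 49 above a log2 fold change of 2 and 0 of the 108 beyond that size in the other direction. In all 873 the 3 pairs differed in the same direction, and in 869 the p2 and pMN values did not overlap; over all tested elements 8000 (25.1%) did not overlap, 5273 of them (16.5%) higher in pMN. Without a threshold on size, 5276 elements passed the adjusted p, 3836 higher in pMN and 1440 higher in p2.

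The replicate block set how many elements were called. Without it limma called 512 elements (1.61%), 449 higher in pMN and 63 higher in p2, and all 512 were among the 873. The study describes no block either, but it ran DESeq2 on read counts, so 512 is not the study's number. The share higher in pMN was 87.6% of calls in the paired fit and 75.3% after a correction for GC content and level, with 557 higher in pMN and 183 higher in p2. GC content moved with the direction: its median was 47.9% in elements higher in pMN and 42.8% in those higher in p2, against 52.2% in all tested elements and 50.1% in those outside promoters. Its part in the result was not tested further.

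**Figure D1:**
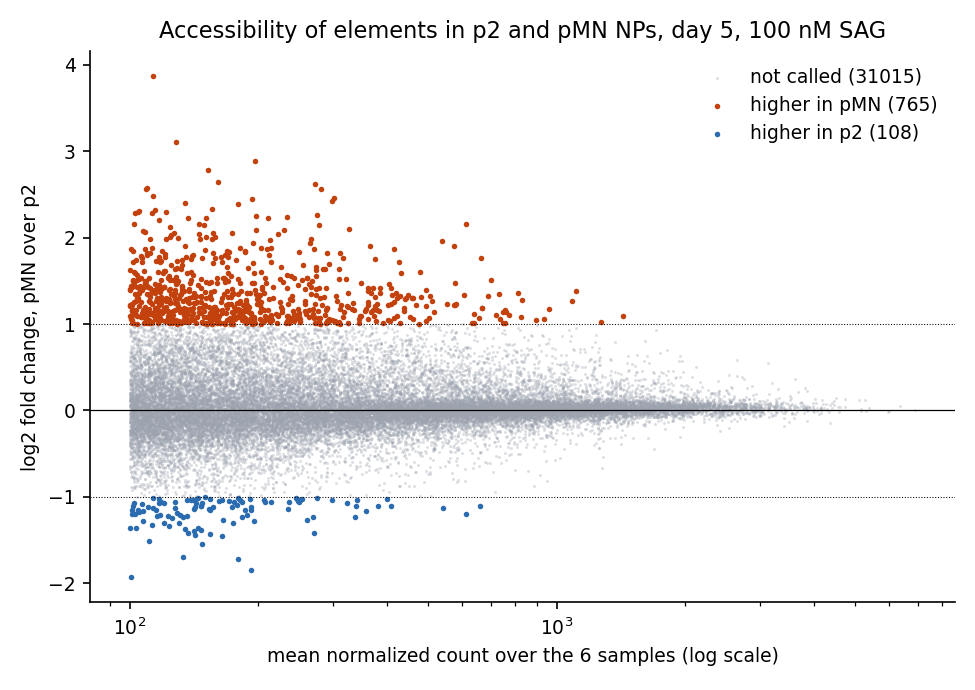
Each point is 1 of 31888 tested elements, with its mean normalized count over the 6 samples on a log axis and its log2 fold change (pMN over p2) on the other; dotted lines mark a 2-fold change. The 765 elements higher in pMN (orange) reach log2 fold changes of up to 3.87, and the 108 higher in p2 (blue) reach -1.93, both mostly at low to moderate accessibility.

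Genes of motor neuron identity had the clearest differences. Of 45 tested elements assigned by nearest TSS to genes of the pMN and motor neuron list, 13 (28.9%) were higher in pMN, against 2.4% of all tested elements and 3.03% of those outside promoters, 4 of them at Olig2, the gene of the sort marker. By limma 0 were called higher in p2, with or without the block, and 1 was lower in pMN at an unadjusted p under 0.05; voom called 13 and 0. The median log2 fold change was 0.55. Elements were tested near 10 of its 12 genes, and those with a called element were Olig2, Olig1, Lhx3, Lhx4, Isl1, Mnx1 and the cholinergic gene Slc18a3, which encodes the vesicular acetylcholine transporter. Without the block 11 of the 13 were called, and with the correction for GC content and level 10. Summed over the 45 elements, normalized counts were between 21676 and 24305 in the p2 samples and between 30105 and 34886 in the pMN samples. Nearest-TSS assignment is positional and does not show which gene an element acts on.

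The element with the largest difference of the list lay at -6698 bp from the TSS of Mnx1 (negative distances are upstream), a homeobox gene that maintains motor neuron identity. This element (chr5:29484063-29486273) had 50.6, 54.1 and 29.1 normalized counts in p2 and 284, 234 and 316 in pMN. All pMN samples were far above all p2 samples. Its log2 fold change was 2.64, from 44.6 ± 13.5 (SD, n = 3) to 278 ± 41.7 (SD, n = 3), with an adjusted p of 3.29e-05. The element at the Mnx1 TSS differed little, with 732 ± 72.6 in p2 and 826 ± 76.4 in pMN and an adjusted p of 0.027.

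An intergenic element assigned to Lhx3 (chr2:26175047-26175846), 32803 bp from the TSS, had 118, 83.3 and 75.9 normalized counts in p2 and 557, 459 and 513 in pMN. Lhx3 is a LIM homeobox gene that works with Isl1 in motor neurons and is also used in V2 interneurons. The groups were far apart (log2 fold change 2.46, adjusted p = 3.16e-06). At the Lhx3 TSS itself the values were 162 ± 11.7 in p2 and 228 ± 19.1 in pMN, and the difference passed the adjusted p (0.00869) but not the fold threshold. The related gene Lhx4 had 2 called elements, the stronger (chr1:155746946-155747436) at 125 ± 29.3 in p2 and 361 ± 63.9 in pMN.

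The element assigned to Slc18a3 (chr14:32439551-32440467) lay in an intron of Chat, which encodes the enzyme that makes acetylcholine. It had 48.6, 63.6 and 47.5 normalized counts in p2 and 175, 150 and 206 in pMN, a log2 fold change of 1.73 with an adjusted p of 0.000114. The element was not particular to pMN. At day 5 its mean in p3 was 229 from 100 nM and 285 from 500 nM, against 177 and 188 in pMN. The Isl1 element with the larger difference (chr13:115750973-115751774) lay 558315 bp from the Isl1 TSS. It had 68.6, 82.5 and 44.5 in p2 and 169, 157 and 200 in pMN, and its log2 fold change was 1.43. At both elements the p2 and pMN values were apart in every replicate. The Isl1 element was not called at day 6 and 100 nM (log2 fold change 0.42, adjusted p = 0.2). Nor was it called between p2 from 10 nM and pMN from 500 nM at day 5 (0.03, adjusted p = 0.654). The element at the Isl1 TSS had 838 ± 33.6 in p2 and 926 ± 34.5 in pMN, and did not pass the test (adjusted p = 0.0553).

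The Olig2 and Olig1 genes lie next to each other on chromosome 16, and both encode bHLH factors of the pMN domain. A stretch of 198 kb around them was set to begin and end at called elements, so its counts follow in part from that choice. It held 17 tested elements, and all 17 had a higher mean in pMN, where 54.7% of all tested elements did. Of the 17, 8 were called higher in pMN, where 2.4% of all tested elements were. A further 7 passed the adjusted p with a fold change under 2. Olig2 was the gene with the most called elements in either direction, 4 of 8 tested. The largest difference was at an element 9237 bp downstream of the Olig2 TSS (chr16:91231830-91237744), with 73.9, 86.8 and 120 normalized counts in p2 and 382, 340 and 788 in pMN. Replicate 3 was the highest in both cell types, and the spread in pMN was wide (503 ± 247, SD, n = 3). The log2 fold changes of the 3 pairs had an SD of 0.37. The VST difference was 2.21 ± 0.13 (SE, which draws on other elements), with an adjusted p of 1.05e-05. An Olig1 element (chr16:91312092-91313197) 42875 bp from the Olig1 TSS had 67.9 ± 29.8 in p2 and 192 ± 28.1 in pMN, and was not called without the block (adjusted p = 0.0192). The element at the Olig1 TSS went from 558 to 857 normalized counts, under the fold threshold.

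**Figure D2:**
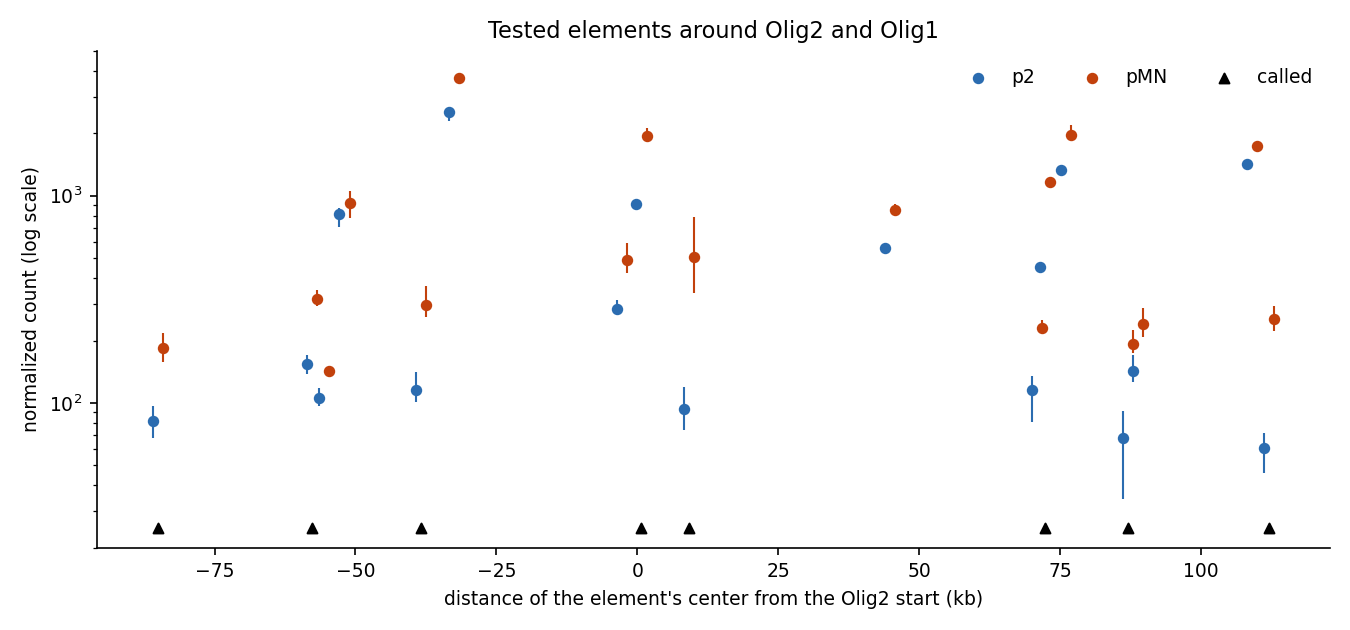
The 17 tested elements around Olig2 and Olig1, by distance of their center from the Olig2 TSS in kb; points are means of 3 samples and lines their range, in normalized counts on a log axis. All 17 orange points (pMN) lie above the blue points (p2) of the same element, and triangles mark the 8 called elements. The stretch shown was set to begin and end at called elements.

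Outside the lists, the largest difference of all was at an intergenic element at -132755 bp from Adra1a, an adrenergic receptor gene (chr14:66502040-66502952). It had 15.3, 11.2 and 16.9 normalized counts in p2 and 210, 176 and 250 in pMN, 14.7-fold more (adjusted p = 3.16e-06). Values in p2 were low in all 3 samples, and the groups were far apart. Among the elements with the largest fold changes higher in pMN were others assigned to Nsmce3 (log2 fold change 3.11), Map4k5 (2.78), Mnx1 (2.64), Hsd17b3 (2.62), Daam1 (2.58) and Esm1 (2.57). Over these, the highest p2 sample was 80.5 normalized counts, at Hsd17b3, and the lowest pMN sample was 115, at Esm1. Daam1 encodes a formin that organizes actin, and Esm1 a secreted proteoglycan of endothelium.

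Several genes had more than 1 called element. Among those higher in pMN, 8 genes had 3, namely Nrp2, Ncam1, Alpk1, Gm815, Gm10538, 2810032G03Rik, 4930487H11Rik and 9430078K24Rik. Nrp2 is a receptor for semaphorins and Ncam1 a neural adhesion molecule, both used in axon growth. The 3 elements of Nrp2 had log2 fold changes of 1.15 to 1.30, and those of Ncam1 of 1.29 to 1.59. When called elements less than 50 kb apart were chained, those higher in pMN formed 44 groups of 2, 5 of 3 and 1 of 5, the last at Olig2, and each of the 108 higher in p2 stood alone. The number of called elements differs between the directions, so these counts are not a comparison of clustering. In the p2 direction Mir6336 was the single gene with 2.

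**Figure D3:**
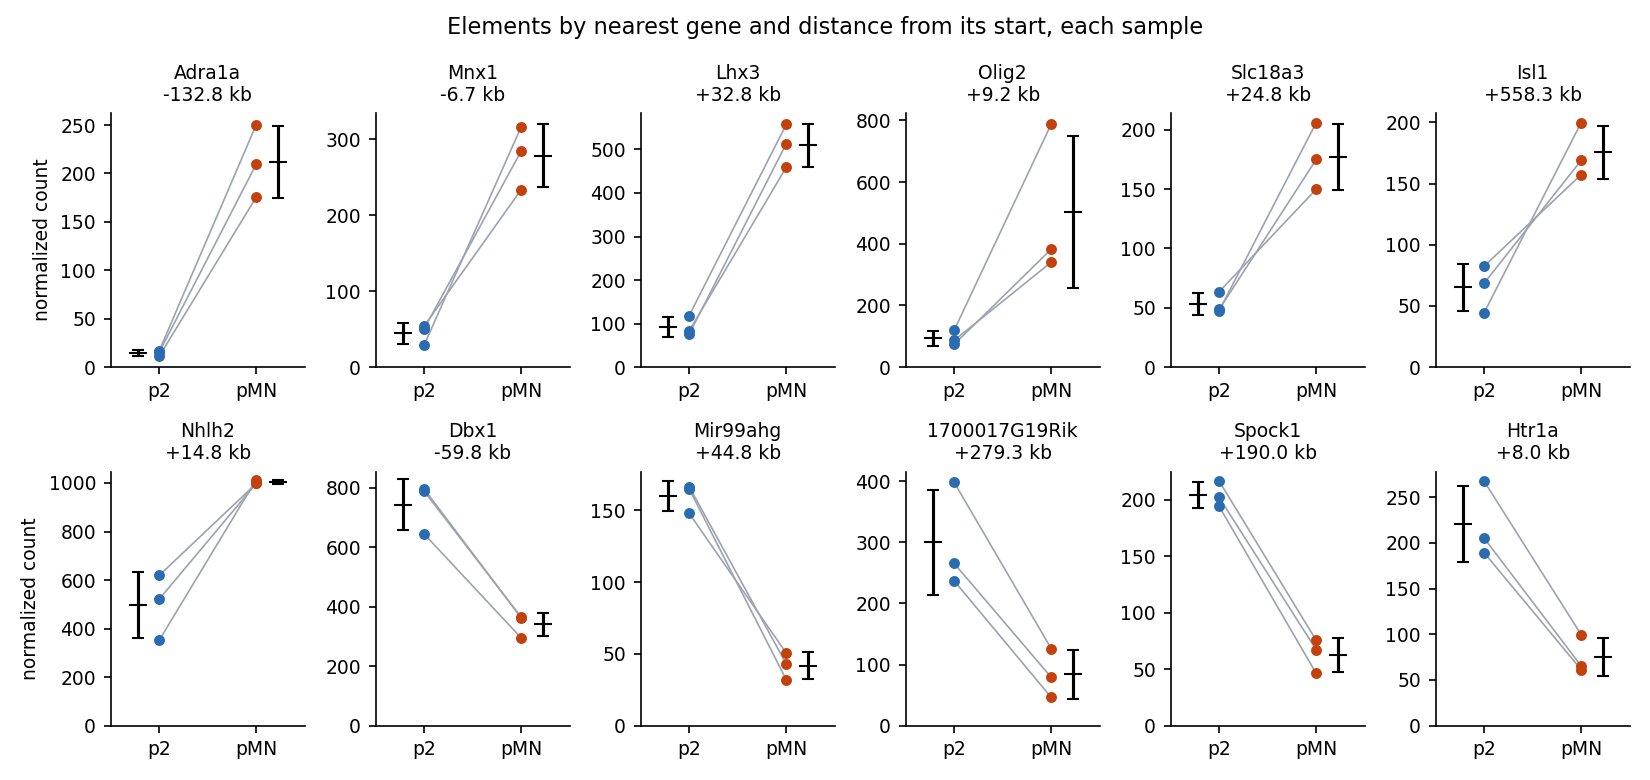
Normalized counts of 12 named elements in each sample, headed by the nearest gene and the distance from its TSS; grey lines join samples of the same replicate number, and the bars beside the points are means ± SD (n = 3). All 3 lines rise toward pMN in the first 7 panels and fall in the last 5, with no overlap of the groups.

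Elements higher in p2 were fewer, and 1 of the 108, near Dbx1, was assigned to a gene of the lists. The largest difference was in an intron of the noncoding gene Mir99ahg (chr16:77373598-77374621), at 166, 148 and 165 normalized counts in p2 and 43.0, 50.6 and 32.0 in pMN. Its log2 fold change was -1.93 (adjusted p = 5.65e-05). An intergenic element 279304 bp from 1700017G19Rik (chr3:40243021-40244195) had 398, 265 and 237 in p2 and 126, 79.1 and 46.2 in pMN. Replicate 1 was highest and replicate 3 lowest in both cell types, and the difference was not called without the block (adjusted p = 0.0118). The other 6 of the 8 leading elements were assigned to Sh3rf2 (-1.72), Spock1 (-1.70), Htr1a (-1.55), Eno1b (-1.51), 1700017J07Rik (-1.45) and Lrrtm4 (-1.45). Htr1a encodes a serotonin receptor and Lrrtm4 a synaptic adhesion protein, and the Lrrtm4 element was not called without the block either (adjusted p = 0.0123).

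Among patterning genes the element higher in p2 was near Dbx1, a homeobox gene of the p0 domain. It lay at -59780 bp from the TSS (chr7:49696204-49697027) and had 796, 789 and 645 normalized counts in p2 and 363, 364 and 295 in pMN. Its log2 fold change was -1.13, with a VST difference of -1.10 ± 0.06 (SE) and an adjusted p of 6.66e-06. It was called without the block as well (adjusted p = 0.00251). The element was not particular to p2. At day 5 its mean in p0-1 was 1734 from 0 nM and 2074 from 10 nM, against 743 and 894 in p2 from 100 and 10 nM. In the same p0 and p1 list, of 44 tested elements, 1 was higher in pMN, an intronic element of Pax7 (98.8 ± 25.5 to 216 ± 3.07), and the median log2 fold change was -0.09. Pax7 marks dorsal progenitors, and without replicate 3 its element was under the fold threshold (log2 fold change 0.96).

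Genes of the p2 domain and its V2 progeny had 0 called elements higher in p2 by limma or voom, where 0.339% of all tested elements were called in that direction, so that a list of this size holds too few to be set apart. In each direction 17 had an unadjusted p under 0.05. Of 62 tested elements near 12 genes, 1 was called, higher in pMN (2.4% of all tested elements), and it was not called without the block. The median log2 fold change of the list was -0.05. Smaller differences passed the adjusted p in both directions, 9 higher in pMN and 7 higher in p2. Those named next were chosen after their values were seen. At Irx5, an element 9211 bp from the TSS had 391 ± 82.7 in p2 and 218 ± 38.3 in pMN (log2 fold change -0.84), and at Irx3 an element at -28362 bp had 391 ± 78.2 and 227 ± 53.4 (-0.79). Another Irx3 element, at -65597 bp, went the other way, with 395 ± 104 in p2 and 689 ± 109 in pMN (0.80). All 3 passed the adjusted p with the block, and without it they did not (adjusted p of 0.0322, 0.0545 and 0.0395). Over the 37 tested elements of the 6 Irx genes, 0 were called by limma or voom, 6 and 14 were higher in pMN and in p2 at an unadjusted p under 0.05, 3 passed the adjusted p higher in pMN and 7 higher in p2.

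At the TSS of the genes that define the NP domains, differences were small. Of 15 marker genes, 14 had a tested element assigned to them, Nkx2-2 having none, and among the elements nearest each TSS Olig2 was the 1 called. The other 13 had log2 fold changes between -0.24 at Foxn4 and 0.62 at Olig1. Irx3, which p2 expresses and pMN does not, had 2795, 2701 and 2013 normalized counts at its TSS in p2 and 2353, 2480 and 1871 in pMN, so that the groups overlapped (adjusted p = 0.0294). Irx5 also overlapped, at 4675, 4590 and 3229 in p2 and 4215, 4521 and 3398 in pMN. Nkx6-1, which both cell types express, had 2181, 2171 and 1932 in p2 and 2246, 2235 and 2302 in pMN (adjusted p = 0.156). Pax6 had 3208, 3060 and 3053 in p2 and 2945, 2929 and 3180 in pMN (adjusted p = 0.58). The Sox2 element was slightly higher in pMN, from 1639 ± 63.7 to 1919 ± 54.9, which passed the adjusted p (0.00655) but not the fold threshold.

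Markers of the neighboring ventral domains were tested as well. Of 39 tested elements near p3 and floor plate genes, 3 were called higher in pMN, where 2.4% of all tested elements were, and 0 higher in p2, with a median log2 fold change of -0.05. The smaller differences went both ways: 6 elements passed the adjusted p higher in pMN and 7 higher in p2, 8 and 10 had an unadjusted p under 0.05, and 1 was called higher in p2 with samples centered or with the correction for GC content and level. The 2 at Nkx2-9, a homeobox gene of ventral progenitors, had log2 fold changes of 1.34 and 1.17, and neither was called without the block (adjusted p of 0.0304 and 0.0226). The stronger had 57.2, 69.6 and 96.6 normalized counts in p2 and 146, 144 and 275 in pMN. It was not particular to pMN. At day 5 its mean in p3 was 245 from 100 nM and 242 from 500 nM, against 188 and 222 in pMN. The third lay in an intron, of Mipol1, 108895 bp from Foxa1, a forkhead gene of the floor plate, at 65.9 ± 12.7 in p2 and 158 ± 10.3 in pMN. Over the 39 elements the summed counts overlapped, at 11963 to 13118 in p2 and 11461 to 14197 in pMN.

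Elements of neuronal genes were shifted toward pMN. Of 44 tested elements near 14 genes of neuronal differentiation, 42 had a log2 fold change above 0, where 54.7% of all tested elements did, and the median was 0.41. Called were 2 (4.55%, against 2.4% of all tested), both higher in pMN, and 17 passed the adjusted p in that direction with 0 in the other. The called elements were near the bHLH genes Nhlh2 (497 ± 135 in p2 and 1004 ± 9.20 in pMN) and Neurod4 (67.3 ± 17.6 and 147 ± 11.7), and neither was called without the block (adjusted p of 0.0108 and 0.0152) or without replicate 3 (log2 fold changes of 0.81 and 0.88), nor after the correction for GC content and level. At day 6 and 100 nM neither the Nhlh2 nor the Neurod4 element was called (log2 fold changes of 0.74 and 0.41). Between p2 from 10 nM and pMN from 500 nM at day 5, the log2 fold change was 0.08 at Nhlh2, with means of 809 and 858. At Neurod4 it was -0.51 there, with means of 186 in p2 and 131 in pMN. In the 6 samples compared, the summed counts of the list were between 16518 and 21727 in p2 and between 24006 and 26347 in pMN. Of the 44 elements 0 was at 0 in any of these samples. At the TSS of Tubb3 and Stmn2, markers of postmitotic neurons, the log2 fold changes were 0.26 and 0.25, with adjusted p of 0.0488 and 0.0654. Both gates required SOX2. Neuronal elements and the motor neuron elements were higher in the same group, and the part of neuronal cells in either result was not tested.

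In each pathway list 0 or 1 elements were called, where 2.74% of all tested elements were, which does not set these lists apart by their calls. The Notch pathway list (58 tested elements, median log2 fold change 0.13), the Hedgehog pathway list (44, 0.05), the shared NP list (63, 0.06) and the NMP and mesoderm list (13, -0.04) had 0 called in either direction under limma with the block, without it and under voom. At the adjusted p alone, where 3836 of all 31888 were higher in pMN and 1440 higher in p2, the Notch list had 12 elements higher in pMN and 1 higher in p2, the Hedgehog list 7 and 5, the shared NP list 10 and 5, and the NMP and mesoderm list 0. At an unadjusted p under 0.05 these counts were 22 and 3, 16 and 10, 22 and 8, and 1 and 1. The medians of the Hedgehog and shared NP lists turned to -0.02 with the correction for GC content and level, so no direction is given for them. That of the Notch list was 0.07. Of its elements 75.9% had a log2 fold change above 0, where 54.7% of all did. Summed counts of the Notch list did not overlap (42242 to 46109 in p2, 48914 to 50887 in pMN). Those of the Hedgehog and retinoic acid lists did not overlap either, and those of the shared NP and the NMP and mesoderm lists did. The retinoic acid list had 1 of 37 called, an intronic element assigned to Cyp26b1, which encodes an enzyme that degrades retinoic acid. That element had 123 ± 37.8 in p2 and 302 ± 51.6 in pMN, and was not called without the block (adjusted p = 0.0121). Among Hox genes, 0 of 53 tested elements near 34 genes were called by limma or voom, with log2 fold changes between -0.54 and 0.54, while 13 were higher in pMN and 5 higher in p2 at an unadjusted p under 0.05.

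**Figure D4:**
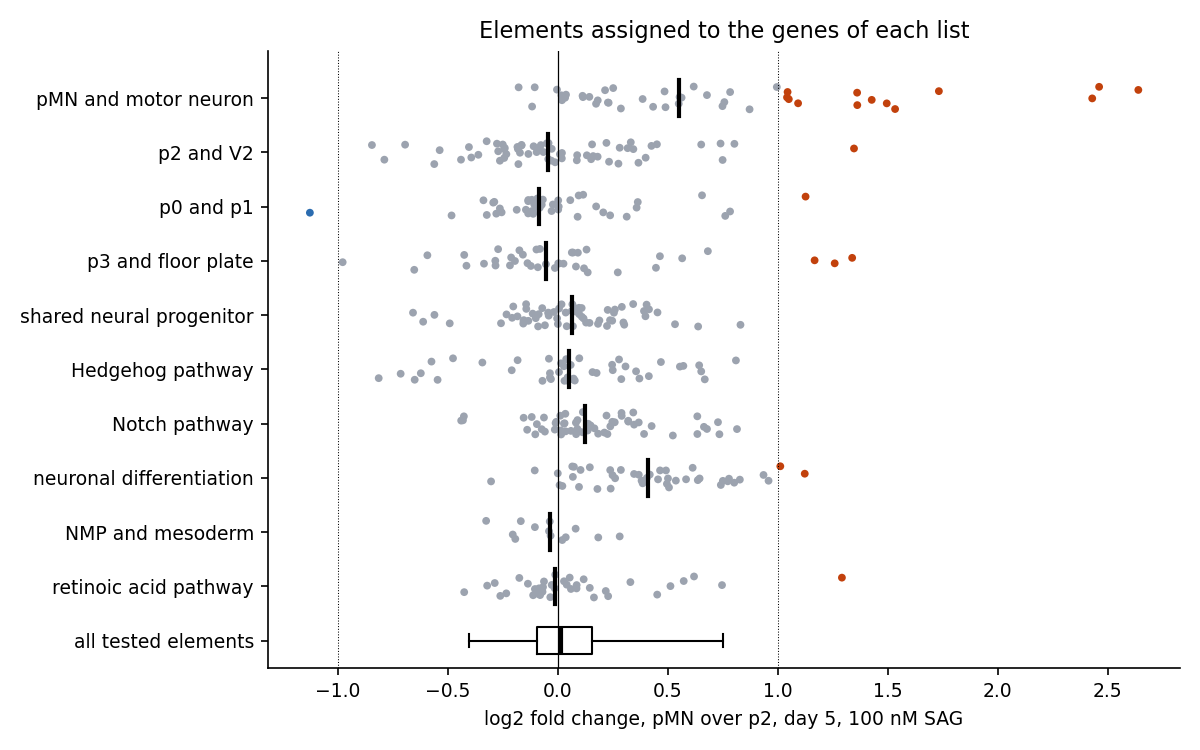
Log2 fold change (pMN over p2) of every tested element assigned to a gene of each list, with black bars for list medians; orange points were called higher in pMN and the blue point higher in p2, and the box for all tested elements spans the quartiles with whiskers at the 5th and 95th percentiles. The pMN and motor neuron list reaches 2.64 with a median of 0.55, and the neuronal differentiation list has a median of 0.41 with 2 called elements.

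Differentially accessible elements lay away from promoters. Of elements higher in pMN, 0.784% were annotated as promoter-TSS, 47.5% as intron and 48.8% as intergenic. For those higher in p2 the shares were 0.926%, 37.0% and 58.3%, and for all tested elements 21.5%, 35.2% and 30.5%. The median distance to the nearest TSS was 52748 bp for elements higher in pMN and 78114 bp for those higher in p2, against 9610 bp over all tested. Called elements were also less accessible than most: elements higher in pMN had a median of 93.4 normalized counts in p2 and 235 in pMN, those higher in p2 209 and 92.8, and all tested elements 312 and 325. Promoter elements are more accessible in general, and level and position were not separated.

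E-boxes were more frequent in the windows of elements higher in pMN. The motif CAGATG was present in 45.1% of the 765 windows of 300 bases, in 27 of the 108 windows higher in p2, in 22.2% of the 25041 tested windows outside promoters and in 19.4% of all tested windows. The palindrome CATATG was present in 9.15%, 0.926%, 3.99% and 3.43% of the same sets, and the palindrome CAGCTG in 32.2%, 16.7%, 21.1% and 19.7%. At least 1 of these E-boxes was present in 66.9% of windows higher in pMN, 36.1% of those higher in p2 and 40.7% of tested windows outside promoters. Of the named elements chosen by size or by list, 14 of 21 higher in pMN and 2 of 9 higher in p2 had one.

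Shares of the other motifs are given in the order higher in pMN, higher in p2 and tested outside promoters. The SOX core CATTGT was present in 27.1% of windows higher in pMN and 26.9% of those higher in p2, against 19.7% of tested windows outside promoters, and the MEIS core TGACAG in 28.9%, 23.1% and 21.3%. The Iroquois core ACATGT was present in 9.54%, 3.70% and 5.56%, the homeodomain core TAATTA in 7.97%, 10.2% and 6.82%, the AP-1 site TGANTCA in 8.50%, 11.1% and 7.41%, the forkhead core TGTTTAC in 3.79%, 5.56% and 3.43%, the TEAD core ACATTCC in 5.88%, 3.70% and 5.36%, and the PAX6 paired-domain core TTCACGC in 0.523%, 2.78% and 1.31%. With 108 windows higher in p2, 1 window is close to 1%, so the rarer motifs are not resolved in that set. Of 15 motifs searched, the others were the POU octamer, in 2.35%, 1.85% and 1.93%, the GLI consensus, in 1.18%, 0% and 0.431%, and the NFI and CTCF motifs, each in less than 1% of every set. No searched motif contains another. Both strands were searched, and these shares are descriptions of letters in a window, not of binding.

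In samples that took no part in the call, the same elements differed in the same direction. At day 6 and 100 nM, with 3 p2 and 2 pMN samples, 757 of the 765 elements (99.0%) were higher in pMN, where 61.7% of all 31888 tested elements were, and all 108 elements of the other set were higher in p2, where 38.3% of all were. The median log2 fold changes at day 6 were 1.02 and -1.31, with 398 of the 765 and 81 of the 108 beyond 2-fold. Over all tested elements, 2.10% were more than 2-fold higher in pMN and 1.06% more than 2-fold higher in p2. Tested separately at day 6, 699 of 32573 elements were called (2.15%), 1.71% higher in pMN and 0.439% higher in p2, and among them were 275 of the 765 and 36 of the 108. By the sample titles, the pMN group lacks replicate 1 there. The paired fit thus rests on 2 pairs, and p2 replicate 1 adds nothing to its difference, although it enters the fold change. The column names of the deposited values number these pMN samples 1 and 2 instead, and that pairing was not tested. The filter on level at day 6 was passed by 728 of the 765 and 60 of the 108.

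At day 4 the differences were smaller. Among the 765 elements, 735 (96.1%) were higher in pMN at day 4, where 62.2% of all were, and among the 108, 98 (90.7%) were higher in p2, where 37.8% of all were. Their median log2 fold changes were 0.58 and -0.33, and 110 and 1 of them differed by more than 2-fold. Over all tested elements, 0.618% were more than 2-fold higher in pMN and 0.00941% more than 2-fold higher in p2. Tested separately at day 4, 82 of 29768 elements were called (0.275%), 0.239% higher in pMN and 0.037% higher in p2, and 39 of the 765 and 0 of the 108 were among them, where 269 and 37 passed the filter. Without the block 0 elements were called by limma in either of these 2 fits, although 2125 at day 4 and 4270 at day 6 had an unadjusted p under 0.05.

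Single elements took different courses between days. The Mnx1 element had 368 ± 71.4 normalized counts in day 3 NMPs, 73.8 ± 16.9 in p2 and 79.2 ± 8.29 in pMN at day 4, and 44.6 ± 13.5 and 278 ± 41.7 at day 5. The cell types differed by less than the SD at day 4, and at day 5 the pMN values alone were near those of NMPs. The Lhx3 element had 15.2 ± 2.58 in NMPs, 18.3 ± 5.45 in p2 and 44.5 ± 21.8 in pMN at day 4, 92.6 ± 22.7 and 510 ± 49.4 at day 5, and 307 ± 39.4 and 950 ± 211 (n = 2) at day 6, with higher levels on each later day in both cell types. The Adra1a element had 7.13 in p2 and 15.2 in pMN at day 4, 14.4 and 212 at day 5 and 32.5 and 253 at day 6. The Olig2 element downstream of the gene was also called at day 4, at 84.2 ± 29.3 in p2 and 245 ± 89.8 in pMN. Among elements higher in p2, that of 1700017G19Rik had 8.31 ± 3.01 in p2 and 7.84 ± 2.82 in pMN at day 4, then 300 ± 86.0 and 83.7 ± 40.1 at day 5. The Dbx1 element had 335 ± 28.9 in p2 and 231 ± 36.5 in pMN at day 4, under the fold threshold.

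The change from day 4 to day 5 was tested as an interaction of cell type and day. Of 31006 elements, 100 (0.323%) were called, 83 with a difference that moved toward pMN at day 5 and 17 toward p2. The difference at the Mnx1 element increased by 2.27 ± 0.25 (SE) on the VST scale (adjusted p = 5.6e-05) and that at the Lhx3 element by 1.47 ± 0.22 (adjusted p = 0.000702). The leading Lhx4 element (1.33 ± 0.22) was called as well. In the p2 direction, the change was -1.71 ± 0.23 at 1700017G19Rik (adjusted p = 0.000337) and -1.42 ± 0.20 at Sh3rf2 (adjusted p = 0.000601). These tests use the same day 5 samples as the main comparison. The block was the replicate number within each day, so no pairing of samples across days was assumed, and whether same-numbered samples of different days share a differentiation is not stated in the labels. Without the block, limma called 0 elements, with 1420 at an unadjusted p under 0.05, and with it the count was 57 without replicate 1 and 31 without replicate 2.

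The difference was also present between cell types sorted from other SAG concentrations, for p2 from 10 nM (3 samples) and pMN from 500 nM (2 samples) at day 5, although here cell type and concentration cannot be told apart. Of the 108 elements higher in p2, all 108 were higher in p2 there, where 58.8% of all tested elements were, with a median log2 fold change of -1.72. Of the 765, 656 (85.8%) were higher in pMN, where 41.2% of all were, and the median was 0.61. Its own test rests on 2 pairs, since by the sample titles pMN replicate 1 is not among the samples. The column names of the deposited values number these pMN samples 1 and 2 instead. In this test, 315 of 32557 elements were called (0.968%), 0.372% higher in pMN and 0.596% higher in p2. Among them were 59 of the 765 and 39 of the 108. Of the leading elements near motor neuron genes, that of Olig2 was called there (log2 fold change 3.30). Those of Mnx1 (1.57), Slc18a3 (1.17), Olig1 (0.82), Lhx3 (0.75), Lhx4 (0.29) and Isl1 (0.03) were not called.

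Levels across the dorsoventral series placed the 2 sets differently. Elements higher in p2 were accessible in all dorsal NPs at day 5: the median VST value over the 108 was 8.35 ± 0.15 (SD over samples) in p0-1 NPs from 10 nM, 8.02 ± 0.22 in p2 from 10 nM and 7.82 ± 0.06 in p2 from 100 nM, and it was lower in pMN from 100 nM (6.74 ± 0.16) and lowest in p3 from 500 nM (5.10 ± 0.21). For elements higher in pMN the median was highest in pMN, at 7.94 ± 0.15 from 100 nM and 7.81 ± 0.34 from 500 nM. It was lower in p2 from 10 nM (7.25 ± 0.32), p2 from 100 nM (6.72 ± 0.17), p3 from 500 nM (6.47 ± 0.22) and p0-1 from 10 nM (6.28 ± 0.16). The values at 100 nM in p2 and pMN were used to choose the sets and are given as a description. The p2 samples from 10 nM, which the choice did not use, were above those from 100 nM at the elements higher in pMN, with sample medians of 6.91 to 7.54 against 6.54 to 6.88.

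Neighboring domains were compared in samples not used for the choice. Between p2 and p0-1 NPs from 10 nM at day 5, 692 of the 765 elements (90.5%) were higher in p2, where 40.3% of all tested elements were. More than 2-fold higher were 381 of the 765, where 1758 of all 31888 were. Between p3 and pMN from 500 nM, 574 of the 765 and 78 of the 108 were more than 2-fold lower in p3, where 5084 of all 31888 were. At day 3, in NMPs, both sets were at their lowest, with median VST values of 4.92 ± 0.11 and 4.02 ± 0.15.

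**Figure D5:**
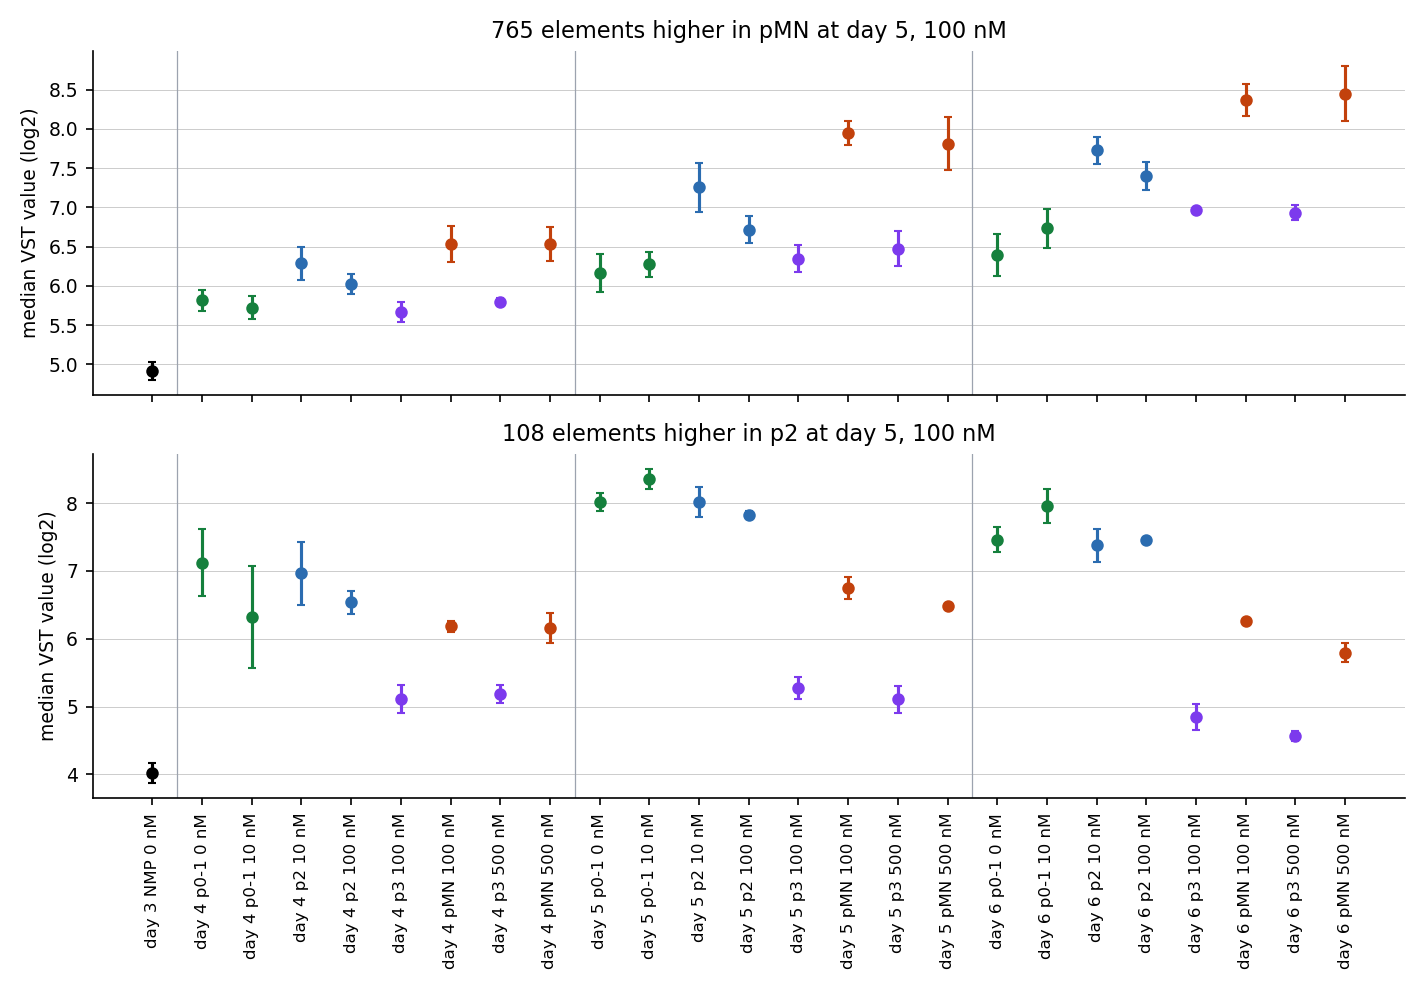
Median VST value (log2 scale) of the 765 elements higher in pMN (top) and the 108 higher in p2 (bottom) in every group of the series; points are means over the 2 or 3 samples of a group and bars their SD, colored by cell type (black NMP, green p0-1, blue p2, orange pMN, purple p3). The top set is highest in pMN at days 5 and 6, and the bottom set is high in p0-1 and p2 and low in p3.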

How the data were processed

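Chromatin accessibility was measured in 67 samples, of which 3 p2 and 3 pMN samples of day 5 and 100 nM were compared. The authors processed reads with nf-core/atacseq, called peaks with MACS, kept consensus elements seen in at least 2 replicates, counted reads and deposited log2-scale values from the variance-stabilizing transformation (VST) of DESeq2, on mm10, with HOMER annotation. The VST was inverted to normalized counts and whole reads (100% of values below 1000 reads came out whole in every sample, none more than 3.59e-11 reads from a whole number). Fold changes are log2 ratios of mean normalized counts and differences with an SE are on the VST scale, which understates changes of low elements. Tests used limma 3.58.1 in R 4.3.3, with a mean-variance trend, the replicate number as a block, a mean above 100 normalized counts, with calls at adjusted p under 0.01 and more than 2-fold; fitting was tested on simulated data. Samples were paired by the replicate number of their titles, as the comparison was defined. For the samples of the main comparison the deposited column names give the same numbers. Among these, deviations from group means correlated at 0.564, 0.755 and 0.652 for same-numbered samples and between -0.566 and -0.058 for others. Deviations cancel within a group of 3, so the negative values follow in part from arithmetic. The pairing of other samples was not checked.

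Named elements were the 8 largest in each direction, the largest called element of each listed gene, the element nearest the TSS of 15 marker genes, and genes with the most called elements. The gene lists, motifs and alternatives were chosen with earlier results of these data known. With the replicate block, p-values measure how far the difference between pMN and p2 varied from pair to pair. Spread between differentiations that both samples of a pair share is removed. In the main fit the spread of an element had 2 residual degrees of freedom. A further 7.498 prior degrees of freedom came from the other elements, so these p-values lean on them as well. Coordinates were compared with GRCm38.p6, in which 0 of 111638 elements ended beyond a chromosome. Alternatives were no block, leaving out each replicate, centering, a GC correction, voom on recovered reads, other scales, filters and thresholds. Some named elements are not reported here.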

Additional observations from a re-analysis of the deposited data

Results flagged for a closer look

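In the paired fit, some elements differed between pMN and p2 by another amount at day 4 than at day 5. By the test of the interaction itself (limma, adjusted p under 0.01 and a change above 1 on the VST scale), 100 of 31006 elements had a difference that changed, 83 of them toward pMN and 17 toward p2. The count was 0 without the replicate block, 57 without replicate 1, 31 without replicate 2 and 87 without replicate 3. The largest was at the Mnx1 element, where the difference grew by 2.27 ± 0.25 (SE). The groups hold 2 or 3 samples each, so no single sample was tested as standing apart from its group.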

How the results depend on the processing

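The numbers of called elements depended on the pairing, the filter and the fold threshold, and in no alternative that kept them did a call change sign. Without the replicate block 512 were called, 449 higher in pMN and 63 higher in p2, and with 1 sample left out of that fit as well, the counts were 38, 235 and 125 without pMN replicates 1, 2 and 3 (36, 222 and 114 higher in pMN; 2, 13 and 11 higher in p2) and 227, 185 and 522 without p2 replicates 1, 2 and 3 (221, 174 and 456; 6, 11 and 66). Leaving out a pair gave 610 (without replicate 3), 1049 and 1091, of which 572, 843 and 827 were among the 873. With no filter on level, 4785 of 111638 were called, 3867 higher in pMN and 918 higher in p2; with no fold threshold 5276, 3836 and 1440; at a log2 fold change above 2, 49, 49 and 0; and with the fold change on the VST scale 70 were higher in p2. The block with a correction for GC content and level gave 183 higher in p2. Elements whose difference changed from day 4 to day 5 numbered 0 without the block, 57 without replicate 1, 31 without replicate 2, 87 without replicate 3 and 693 without the filter. Elements called at day 5 and also elsewhere numbered 39 at day 4, 0 without the block and 364 without the filter; 311 at day 6, then 0 and 1678; and 98 for p2 from 10 nM and pMN from 500 nM, then 53 and 149, and 58 with samples centered. voom on the recovered reads called 812, of which 802 were among the 873. Of the 44 named elements, 8 lost their call without the block and 3 without replicate 3, namely Pax7, Neurod4 and Nhlh2; Nhlh2 also fell under the fold threshold when centered (0.95), with voom (0.98) and with the GC correction (0.88), and Neurod4 with the last (0.98). With the mean taken over all samples 32 of the 44 were tested, with no call lost. In the day 4 fit and without replicate 3, limma took the spread of each element wholly from the trend (infinite prior degrees of freedom), and fits of 2 pairs had 1 residual degree of freedom, so their p-values lean on the other elements. Depth limits elements near the filter, where 1 read is about 1 normalized count.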
